A study of Mus musculus with 3 samples.

Results

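The 8 tubulin genes described here were Tuba1a, Tuba1b and Tuba1c, which encode alpha-tubulins, and Tubb5, Tubb6, Tubb2a, Tubb2b and Tubb4b, which encode beta-tubulins. They were taken by name as 8 of the 50507 gene rows of one table of unique molecule counts, and each was followed over the time course, the control transfections and the siRNA transfections. 6 of the 8 genes passed the filter on low counts and were tested among 3013 genes; Tubb2a and Tubb2b did not pass and are given by their counts alone. Tubb6 passed only through 1 library of Day01 and 1 of Day02, at 19 and 16 counts, so tests that involve these days were favoured to find it higher there and are not read as results.

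Microtubules are hollow polymers of alpha- and beta-tubulin heterodimers that give cells their shape, carry vesicles and form the mitotic spindle. Mammals hold several genes for each subunit that encode closely related proteins, and tissues differ in which of these isotypes they use. Cells keep the amount of soluble tubulin in check by autoregulation: when free dimer is in excess, the translated tubulin messages are degraded after the first amino acids of the new chain are recognised at the ribosome. Fibroblasts are flat, spread cells rich in microtubules, and reprogramming turns them into compact epithelial colonies.

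The study asked which chromatin regulators matter when mouse embryonic fibroblasts begin to be reprogrammed. Primary wild-type fibroblasts of the BL6 strain carried, in every group, a doxycycline-inducible lentiviral cassette of Oct4, Sox2, Klf4 and c-Myc together with a transactivator, and were grown after induction in medium with LIF, ascorbic acid, a GSK3 inhibitor and an Alk5 inhibitor. The time course followed cells that were replated but received no siRNA, from Day00 to Day06, with 3 libraries a day. The transfected cells received pooled siRNAs against 1 gene, a non-targeting siRNA (nt) or the control named Mock, were replated and induced a day later, and were read on day 6. There were 33 siRNA conditions, and those named below are siWdr5, siBard1, siBrca1, siMtf1, siKmt2d, siPou5f1, siJarid2, siTead2, siEp300, siPrkdc and siSet. The labels name a multiplicity of infection of 1 and no sorting for transduced cells, so a library may pool cells at different stages and cells without the cassette. In such bulk RNA, fewer cells of a type and less RNA per cell cannot be told apart.

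Of 129 libraries, 127 were used, with total counts from 29656 to 235292 and a median of 73279. There were 3 libraries per condition except 5 for Mock and 2 for siMtf1. Mock had 2 columns of the same name in each replicate pool, and the labels do not say how these differ, so its 5 libraries may not all be independent. The 2 libraries left out held 6403 and 7981 counts. All 6 fibroblast markers examined had counts in Day00, Day06, nt, Mock and siWdr5. All 3 epithelial and early pluripotency markers had counts in Day06, where they summed to 61.4 to 217 counts per 1000000 counts (CPM), against 0 to 21.2 in Day00. Of the markers of other cell types, 4 macrophage genes summed to 124 to 205 CPM in Day00 and 18.1 to 89.0 in Day06, with 2 at 0 in either group, 8 neural genes to 82.8 to 275 and 402 to 459.9 CPM, with 3 at 0, and 3 endothelial genes were at 0 in both. The targeted transcripts on day 6 did not serve as a check of the labels: 20 of the 33 targets were lower in their own siRNA than in nt, and the 9 that could be tested had adjusted p-values from 0.686 to 0.996 in edgeR. The best counted of these were Set, with a log2 fold change of -0.25 (SE 0.25), and Hat1, with -0.09 (SE 0.27). Most others were too rare to check, with summed counts of 7 for Wdr5 in siWdr5 against 9 in nt, 0 for Bard1 against 2, 4 for Brca1 against 2 and 17 for Ep300 against 3. Among the siRNAs described below, Brca1, Ep300, Kmt2d (2.04 CPM against 0) and Tead2 (11.4 CPM against 5.45) were not lower in the libraries labelled with them, on 1 to 17 counts, and those of the other siRNAs were. All siRNAs are named by their labels. The 131 pairs of replicates gave a chi-square per gene of 1.30 to 5.69 and so all varied beyond the sampling of molecules, and each library was counted as its own. The study describes siRNA transfections in triplicate and independent sequencing replicates. Neither it nor the labels say whether the replicates came from separate fibroblast preparations, so p-values measure the spread between libraries only.

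The first bases of the coding sequences are shown because they encode the start of the nascent chain through which tubulin messages are known to be autoregulated. The capitals mark the first 4 codons, and the sequences are from GENCODE vM21 transcripts on GRCm38.
Tuba1a: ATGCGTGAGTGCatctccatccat
Tuba1b: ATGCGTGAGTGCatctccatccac
Tuba1c: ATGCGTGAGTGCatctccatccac
Tubb5: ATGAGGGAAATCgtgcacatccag
Tubb2a: ATGCGCGAGATCgtgcacatccag
Tubb2b: ATGCGAGAGATCgtgcacattcag
Tubb4b: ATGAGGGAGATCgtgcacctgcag
Tuba1b and Tuba1c had the same 24 bases, and all 3 alpha genes shared the capitals letter for letter. The 4 beta genes shown spelled theirs in 4 different ways, all of which encode the same 4 amino acids.

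Tuba1a lies on chromosome 15 at 98949837-98953703, Tuba1b at 98931425-98934565 and Tuba1c at 99029891-99038110 of GRCm38, so the 3 alpha genes form a cluster. Tubb5 lies on chromosome 17 at 35833921-35838306, Tubb4b on chromosome 2 at 25222160-25224702, and Tubb2a and Tubb2b lie near each other on chromosome 13. Each of the 8 genes is protein coding with 4 exons. In the annotation the Gm49450 gene overlaps Tuba1a and Tuba1b on the same strand, and Fam166a overlaps Tubb4b on the opposite strand.

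The Tubb5 promoter is shown because Tubb5 was the member with the most counts and the most tested changes. These are the 250 bases before its RefSeq start on GRCm38.p6, chr17:35838302-35838551, minus strand, with CCAAT boxes and the E-box CACGTG in capitals.
Tubb5: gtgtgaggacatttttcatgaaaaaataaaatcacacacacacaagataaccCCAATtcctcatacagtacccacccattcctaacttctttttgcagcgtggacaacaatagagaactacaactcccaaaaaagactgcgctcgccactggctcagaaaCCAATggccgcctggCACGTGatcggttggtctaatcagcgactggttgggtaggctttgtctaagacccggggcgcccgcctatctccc
The letters CCAAT stood 2 times in this window, CACGTG 1 time, and neither GGGCGG nor TATAAA was there, searching both strands. Over 32851 promoters of the same length, 33.8% held CCAAT, 6.02% held CACGTG, 32.7% held GGGCGG and 12.4% held TATAAA. The Tubb4b promoter, chr2:25224703-25224952, held 5 CCAAT and 1 GGGCGG, and the Tuba1b promoter held 2 GGGCGG. Such matches describe the letters only.

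The 8 genes gave 26388 counts over the 127 libraries, between 0.128% and 0.725% of each library's counts. Tubb5, the class I beta-tubulin of most dividing cells, gave 13205 of these, or 50.04%. Tuba1a, the alpha isotype prominent in neurons, gave 3743 (14.2%), Tuba1b, a broadly used alpha isotype, 3679 (13.9%), and Tuba1c 3292 (12.5%). Tubb4b, a beta isotype of many tissues and of cilia, gave 1330 counts (5.04%). Tubb2b (457 counts, 1.73%) and Tubb2a (339, 1.28%), the paired class II isotypes best known from the brain, and Tubb6 (343, 1.30%), the class V isotype, were at the edge of detection, with 0 counts in 11, 23 and 27 libraries. The protocol counts one molecule per captured 3′ end, so these counts do not scale with transcript length.

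Tubb5 fell at day 3 and again at day 5 and returned each time. Levels below are CPM of the tested genes after TMM scaling, with replicates in the order 1, 2, 3. Tubb5 was at 2771, 2753 and 1995 CPM in Day00, 3347, 3763 and 2630.3 CPM in Day01, and 2351, 2488 and 1915 CPM in Day02. It then stood at 874, 1120.2 and 757 CPM in Day03 and at 2175, 2136 and 1908 CPM in Day04. It was at 1218, 1155 and 734 CPM in Day05 and at 2849, 2585 and 2045 CPM in Day06. All 6 libraries of Day03 and Day05 thus lay below all 15 libraries of the other days. From high to low the day means ran Day01, Day00, Day06, Day02, Day04, Day05 and Day03, and the only neighbours whose libraries did not overlap were Day04 and Day05. Replicate 3 gave the lowest Tubb5 value in 38 of the 41 conditions with 3 replicates and replicate 1 the highest in 33, so the replicate was kept as a term in the fit.

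**Figure D1:**
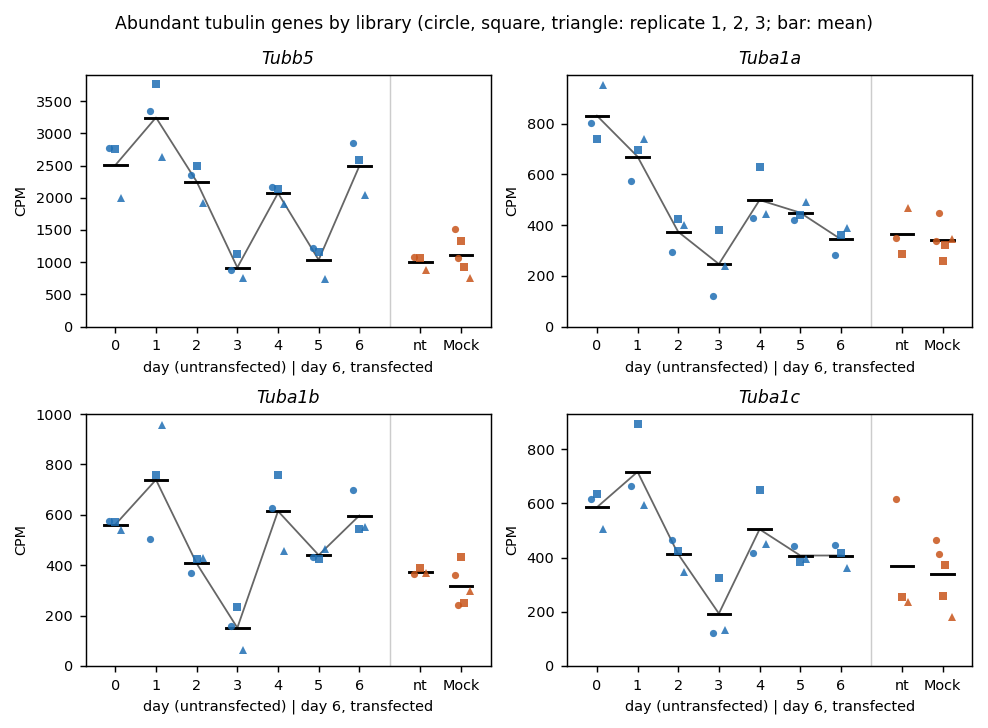
Levels of Tubb5, Tuba1a, Tuba1b and Tuba1c in CPM by day of the time course and in the nt and Mock transfections read on day 6. Points are libraries, marked by replicate, and bars are means; Tubb5 has its lowest day means in Day03 (917 ± 186, SD, n = 3) and Day05 (1036 ± 263), while Tuba1a has its highest in Day00 (831 ± 109).

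From Day02 to Day03 the log2 fold change of Tubb5 was -1.29 (SE 0.18; edgeR quasi-likelihood test, Benjamini-Hochberg adjusted p = 1.48e-09), a 2.45-fold fall. Tuba1b changed by -1.62 (SE 0.32, adjusted p = 7.85e-05) and Tuba1c by -1.14 (SE 0.30, adjusted p = 0.00941). Tuba1a (-0.62) and Tubb4b (-0.67) had log2 fold changes below 0 that did not pass the threshold, and Tubb6 is not read in this step. So 3 of the 6 tested members fell and 0 rose, where 2.82% of all tested genes changed and 1.36% fell. The median over the 5 tested members other than Tubb6 was -1.14, against -0.00 over all tested genes, on the log2 scale.

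The alpha genes showed the dip at day 3 in their separate libraries. Tuba1b was at 367, 425 and 429 CPM in Day02, at 157, 235 and 61.6 CPM in Day03, and at 628, 759 and 457 CPM in Day04. Tuba1c was at 465, 425 and 346 CPM in Day02, at 122, 325 and 132 CPM in Day03, and at 415, 648 and 449.9 CPM in Day04. Tuba1a was at 294, 425 and 401 CPM in Day02, at 122, 379 and 238 CPM in Day03, and at 426, 628 and 443 CPM in Day04. The Day03 libraries of Tuba1b and Tuba1c lay below those of both neighbouring days, whereas those of Tuba1a overlapped with Day02. The Day03 values rest on 7 to 27 counts per library for Tuba1a, 7 to 13 for Tuba1b and 7 to 18 for Tuba1c. Without replicate 3 the Day03 fall of Tuba1b no longer passed the threshold (adjusted p = 0.260 in edgeR), and that of Tuba1c was lost without replicate 1 and without replicate 3.

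From Day03 to Day04 all 4 abundant genes rose: Tuba1b by 2.19 (SE 0.31, adjusted p = 7.61e-11), Tuba1c by 1.45 (SE 0.29, adjusted p = 1.82e-05), Tubb5 by 1.19 (SE 0.17, adjusted p = 9.81e-09) and Tuba1a by 1.04 (SE 0.27, adjusted p = 0.00235) on the log2 scale. The rise of Tuba1b was 4.57-fold. Tubb4b, at 157, 145 and 132 CPM in Day03 and 191, 233 and 239 CPM in Day04, had a log2 fold change of 0.65 (adjusted p = 0.231). 4 of the 6 tested members therefore rose and 0 fell, where 11.9% of all tested genes changed and 5.31% rose. The median without Tubb6 was 1.19, against 0.01 over all tested genes.

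Proliferation markers moved over the same days. Their summed level over 5 genes ran from 465 to 819 CPM in Day02, from 209.8 to 361 CPM in Day03 and from 729 to 936 CPM in Day04. Of the 4 that were tested, Top2a, the topoisomerase of dividing cells, fell into Day03 (log2 fold change -1.22, adjusted p = 0.0222), and Ccnb1, Top2a and Cenpf rose from Day03 to Day04, by 2.18, 1.85 and 1.82. A list of neural markers, which includes the beta-tubulin gene Tubb3, moved from Day03 to Day04 as well. The 8 genes summed to 209.7 to 367 CPM in Day02, 52.5 to 271 CPM in Day03 and 385 to 435 CPM in Day04, with 3, 3 and 1 of them at 0. Tubb3 supplied a mean of 44.7 of 146 CPM in Day03 and 119 of 404 CPM in Day04, so this sum is not separate from the tubulins. Of the 3 that were tested 0 passed from Day02 to Day03, and Nefl, a neurofilament chain, and Tubb3 rose from Day03 to Day04 by 1.64 (adjusted p = 0.0188) and 1.54 (0.0485) in edgeR. The part of dividing or neural cells in the tubulin changes was not tested.

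From Day01 to Day02 the 4 abundant genes fell. Tuba1b changed by -0.92 (SE 0.22), Tuba1a by -0.86 (SE 0.24), Tuba1c by -0.83 (SE 0.23) and Tubb5 by -0.53 (SE 0.15), with adjusted p-values of 0.00290, 0.0120, 0.0130 and 0.0203 in edgeR. Here 4 of 6 members fell, where 4.81% of all tested genes changed and 1.39% fell. The fall of Tuba1a and that of Tubb5 lost the threshold whichever replicate was left out, that of Tuba1b only without replicate 3, and that of Tuba1c without replicate 2 or 3. The proliferation markers summed to 848 to 1087 CPM in Day01 and 465 to 819 CPM in Day02, and 2 of the 4 tested were lower; their part was not tested.

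After Day04 Tubb5 was the only tested member called. It fell from Day04 to Day05 (log2 fold change -1.05, SE 0.16, adjusted p = 1.56e-06) and rose from Day05 to Day06 (1.30, SE 0.17, adjusted p = 1.76e-10). In the first of these steps 4.78% of all tested genes changed and in the second 7.87%. The Tubb5 fall into Day05 lost the threshold without the replicate term and with limma, with values from -1.14 to -0.88 over 10 alternatives. Tuba1a at 419, 438 and 489.6 CPM, Tuba1b at 431, 425 and 464 CPM and Tuba1c at 444, 385 and 393 CPM stood close together in Day05. In Day06 Tuba1a was at 282, 361 and 389 CPM, Tuba1b at 697, 542 and 552 CPM and Tuba1c at 445, 416 and 361 CPM. Tuba1c overlapped with Day05, whereas Tuba1a lay below its Day05 libraries and Tuba1b above them. Neither difference passed the threshold. The proliferation markers summed to 729 to 936 CPM in Day04, 573 to 774 CPM in Day05 and 798 to 922 CPM in Day06. Of the 4 tested, 0 were called in either step. Fibroblast markers summed to 1893 to 2286 CPM in Day04, 1234 to 1637 CPM in Day05 and 1697 to 2329 CPM in Day06. Of these 6, 2 fell into Day05 and 1 rose to Day06. The part of either list in the Tubb5 changes was not tested.

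**Figure D2:**
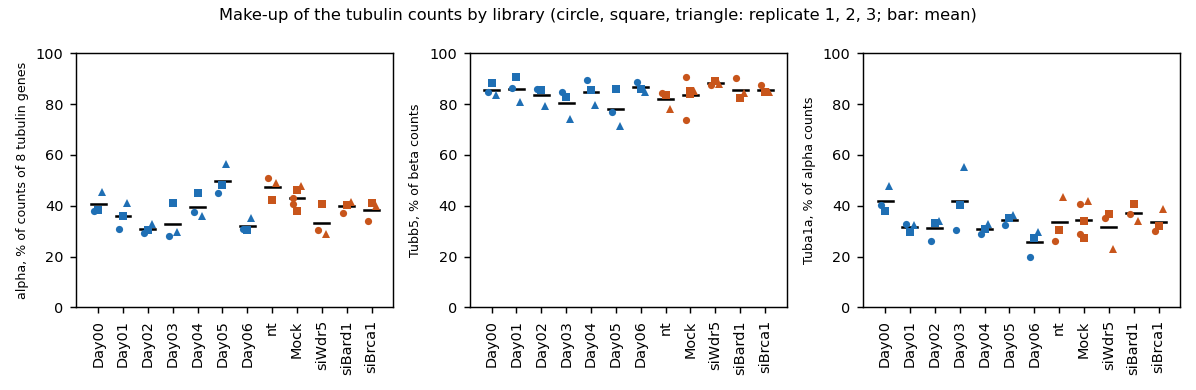
Make-up of the tubulin counts by condition, in percent: the alpha genes' share of all 8 genes' counts, the Tubb5 share of the beta counts and the Tuba1a share of the alpha counts. Points are libraries and bars are means; the alpha share is 49.9% ± 6.04 (SD, n = 3) in Day05 against 32.1% ± 2.54 in Day06.

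The alpha share of the tubulin counts was highest in Day05 among the days, but it was not high in Day03, the other day of low Tubb5. Alpha genes held 44.9%, 48.2% and 56.6% of the tubulin counts in Day05 and 30.8%, 30.5% and 35.0% in Day06, with no overlap. In Day00 they held 40.6% ± 4.26 (SD, n = 3) in Day02 30.8% ± 1.79 and in Day03 32.9% ± 7.02. Over the 7 days Tubb5 made up between 78.1% (Day05) and 86.6% (Day06) of the beta counts on average. No test was made on these shares.

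From Day00 to Day06 only Tuba1a passed the threshold, and it fell. It was at 801, 741 and 952 CPM in Day00 and at 282, 361 and 389 CPM in Day06, and the groups did not overlap. Its log2 fold change was -1.28 (SE 0.24, adjusted p = 2.25e-06), a 2.42-fold fall, and it was 1 of 6 members past the threshold, where 22.2% of all tested genes changed. The other tested members had no call: Tubb5 -0.00 (95% interval -0.31 to 0.31), Tubb4b -0.01 (-0.64 to 0.63), Tuba1b 0.09 (-0.35 to 0.53), Tuba1c -0.51 (-0.98 to -0.04, adjusted p = 0.113) and Tubb6 0.00 (-1.66 to 1.66). With DESeq2's size factors the values of Tuba1b and Tubb6 fell below 0 and Tuba1c also passed the threshold (-0.68, adjusted p = 0.0239). Fibroblast markers summed to 4187 to 5399 CPM in Day00 and 1697 to 2329 CPM in Day06. Of these 6, 4 were lower in Day06, among them Twist2 (-1.87), Col1a2 (-1.67) and Col1a1 (-1.58). Of the other markers, 2 of 3 tested neural genes and 1 of 4 tested proliferation genes were higher, and the 1 tested macrophage gene was lower. The part of any of these lists in the Tuba1a fall was not tested.

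Tuba1a was below Day00 from Day02 on. Relative to Day00 its log2 fold change was -0.32 in Day01 (no call), -1.18 in Day02 (adjusted p = 2.56e-05), -1.80 in Day03 (1.72e-09), -0.76 in Day04 (0.00387) and -0.90 in Day05 (0.000386), all by edgeR. The Day04 call was lost without replicate 1 (adjusted p = 0.0505) and without replicate 3 (0.217), while those of Day02, Day03 and Day05 held whichever replicate was left out. Its share of the alpha counts went from 42.0% ± 5.08 (SD, n = 3) in Day00 to 25.7% ± 5.24 in Day06. The share of Tuba1b went the other way, from 28.4% ± 1.26 to 44.2% ± 4.21. Tuba1b levels were 575, 572 and 538 CPM in Day00 and 697, 542 and 552 CPM in Day06, which overlapped, and by mean level Tuba1a was first and Tuba1b last of the alpha genes in Day00 and the reverse in Day06.

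With TMM scaling the other comparisons with Day00 gave few calls besides Tuba1a, except in Day03. In Day01 0 of 6 members passed in edgeR, with 3 at an unadjusted p under 0.05 (Tubb5, Tuba1b and Tubb6, the last of which entered testing through its high Day01 library) and with no call by DESeq2 or limma, where 9.89% of all genes changed; Tubb5 had a log2 fold change of 0.38 (SE 0.16, adjusted p = 0.0974). In Day02 1 of 6 passed (background 11.6%), in Day03 4 of 6 (10.9%), in Day04 1 of 6 (18.7%) and in Day05 2 of 6 (31.9%), Tubb5 with -1.30 (SE 0.17, adjusted p = 1.43e-11). All these calls were lower than Day00. In Day03 they were Tuba1b at -2.07, Tuba1a at -1.80, Tuba1c at -1.66 and Tubb5 at -1.44. With DESeq2's size factors 2 of 6 passed in Day02, 2 of 6 in Day04 and 5 of 6 in Day05. In an edgeR test of any difference between the 7 days Tubb5, Tuba1a, Tuba1b and Tuba1c passed, leaving out Tubb6, where 42.5% of all genes passed. Tubb4b did not pass with TMM scaling and passed with DESeq2's size factors.

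**Figure D3:**
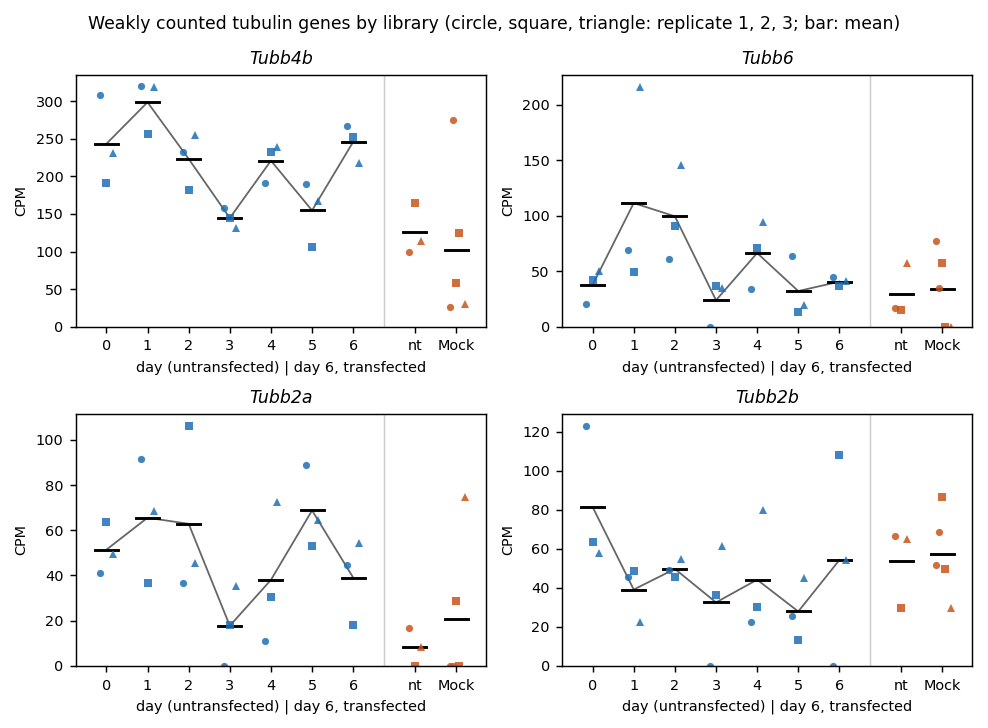
Levels of Tubb4b, Tubb6, Tubb2a and Tubb2b in CPM by day and in nt and Mock, with points for libraries and bars for means. Tubb4b runs from 145 ± 12.7 (SD, n = 3) in Day03 to 299 ± 36.6 in Day01; the other 3 genes often have 0 to 8 counts in a library.

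Tubb4b traced the day means of Tubb5 at a lower level. It was at 308, 191 and 232 CPM in Day00, 321, 257 and 319 CPM in Day01, 190.3, 106 and 168 CPM in Day05 and 267, 253 and 218 CPM in Day06. Its 3 Day03 libraries lay below every library of Day02 and Day04, but neither step passed the threshold, on 8 to 15 counts per library. Over the 7 day means Pearson's r of Tubb4b with Tubb5 was 0.992, of Tuba1b with Tuba1c 0.944 and of Tuba1a with Tuba1c 0.902. These means share their libraries and depth, and the values are descriptions only.

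The 3 rare beta genes allowed few statements. Tubb6 had 1, 2 and 6 counts in Day00, 3, 4 and 19 in Day01, 5, 6 and 16 in Day02, and 0, 2 and 4 in Day03. Since the Day01 and Day02 libraries with 19 and 16 counts let it pass the filter, no test between days is read for it. Summed over libraries, the Day04 to Day03 ratio of its depth-scaled counts was 2.66 (95% counting interval 1.05 to 7.99). Tubb2a had 0, 1 and 4 counts in Day03 and Tubb2b 0, 2 and 7. Such intervals cover counting error only. For Tubb2a the Day03 to Day02 ratio was 0.379 (0.108 to 1.10) and for Tubb2b 0.787 (0.297 to 1.99), so no change was detectable at this depth.

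Transfected controls read on day 6 had less Tubb5 than untransfected Day06 cells. Tubb5 was at 1082, 1062 and 874 CPM in nt, and at 1522 and 1064 (replicate 1), 1326 and 919 (replicate 2) and 761 CPM (replicate 3) in Mock. All 8 control libraries lay below the 2045 CPM of the lowest Day06 library. The log2 fold change was -1.29 (SE 0.17, adjusted p = 7.81e-11) for nt and -1.24 (SE 0.16, adjusted p = 9.51e-12) for Mock, comparisons that share the 3 Day06 libraries. The Tubb5 means of both controls, 1006 ± 115 (SD, n = 3) and 1119 ± 307 (n = 5), were close to that of Day05.

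Tuba1b and Tubb4b were lower as well. Tuba1b stood at 366, 389 and 368 CPM in nt, against 542 to 697 CPM in Day06 (log2 fold change -0.66, SE 0.23, adjusted p = 0.0218), and at 240.3 to 432 CPM in Mock (-0.90, SE 0.24, adjusted p = 0.00140). Tubb4b stood at 99.9, 165 and 114 CPM in nt, against 218 to 267 CPM in Day06 (-0.93, SE 0.36, adjusted p = 0.0382). In Mock Tubb4b ranged from 25.8 to 275 CPM, on 1 to 8 counts, and overlapped with Day06 although the test passed (-1.44, SE 0.41, adjusted p = 0.00197). The nt calls of Tuba1b and Tubb4b were fragile: only Tubb5 passed when replicate 1 or replicate 3 was left out or when the replicate term was dropped, and Tubb4b also had no call without replicate 2. The Mock call of Tubb4b was lost without replicate 3. Tuba1a (0.12 in nt) and Tuba1c (-0.24) had no call.

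3 of 6 members were thus lower in nt than in Day06, where 26.6% of all tested genes changed, and 3 of 6 in Mock, where 28.9% did. The alpha share of the tubulin counts was 51.0%, 42.2% and 48.9% in nt, above all 3 Day06 libraries. Fibroblast markers summed to 825 to 1049 CPM in nt and 821 to 1643 CPM in Mock, against 1697 to 2329 CPM in Day06, and 3 of the 6 were lower in nt by the test; their part in the tubulin differences was not tested. Between Mock and nt 0 of 6 members differed in edgeR, with 0 at an unadjusted p under 0.05 and 0 by DESeq2 and limma, where 1.56% of all genes did. For Tubb5 the log2 fold change of Mock against nt was 0.05 (95% interval -0.30 to 0.40).

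**Figure D4:**
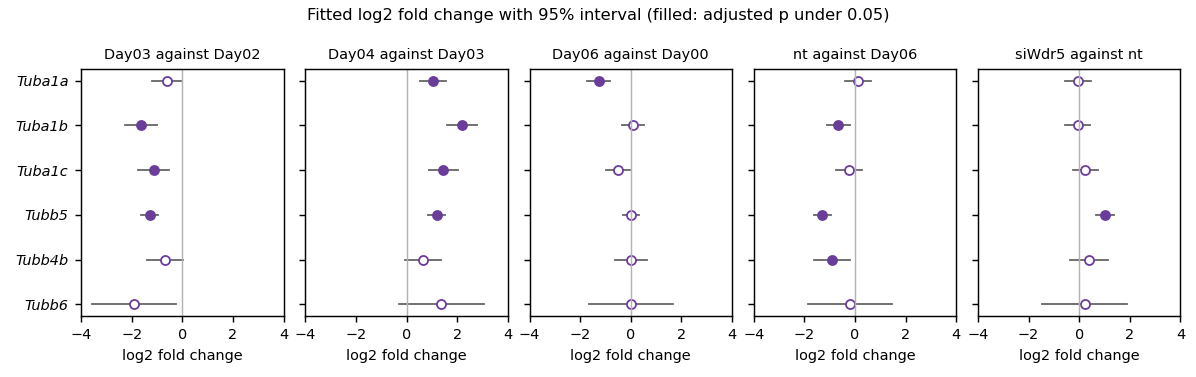
Log2 fold changes of the 6 tested tubulin genes in 5 comparisons, with 95% intervals and a line at 0. Tubb6 is not read in Day03 against Day02. Tubb5 is at -1.29 in Day03 against Day02, 1.19 in Day04 against Day03, -0.00 in Day06 against Day00, -1.29 in nt against Day06 and 1.02 in siWdr5 against nt.

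Against nt, Tubb5 was the member with the most siRNA calls, all of them higher. All 33 comparisons share the same 3 nt libraries, whose Tubb5 level enters each of them, so they are not independent. Over 198 pairs of a member and an siRNA, 9 passed the threshold (4.55% of pairs), where 2.57% of all pairs of a gene and an siRNA did. 8 of the 9 were Tubb5 and the other was Tuba1a, lower in siPrkdc. The 8 Tubb5 calls became 1 without the replicate term or with limma, and 3 to 5 with a replicate left out. They became 13 with DESeq2's size factors and 16 with DESeq2. Tubb5 had a log2 fold change above 0 in 31 of the 33 siRNAs, from -0.15 to 1.02 with a median of 0.53, and an unadjusted p under 0.05 in 21.

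siWdr5, against the WD40 subunit shared by the MLL/SET methyltransferase complexes, gave the largest fitted log2 fold change of Tubb5, though not the highest level. Tubb5 was at 2245, 1876 and 1965 CPM in siWdr5, all above the highest nt library at 1082 CPM. The log2 fold change was 1.02 (SE 0.17, adjusted p = 3.89e-07), a 2.03-fold rise, and it passed under each of 11 alternatives, with values from 0.96 to 1.20. It was the only one of 6 tested members to change in siWdr5, where 27.2% of all tested genes did. In siWdr5 Tuba1a was at 396, 526 and 209 CPM (log2 fold change -0.06, 95% interval -0.56 to 0.45), Tuba1b at 343, 398 and 342 CPM (-0.06, -0.55 to 0.43) and Tuba1c at 383, 512 and 351 CPM (0.24, -0.26 to 0.74). With DESeq2's size factors, which moved the median of all genes by 0.17 in this comparison, Tuba1a and Tuba1b both turned to 0.12, with no call. Whether Tubb5 and the alpha genes differed in their response was not tested. The alpha share of the tubulin counts was 30.5%, 40.6% and 28.8% in siWdr5, below the 42.2% to 51.0% of nt.

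siBard1 and siBrca1 target the partners of a ubiquitin ligase that acts in DNA repair. Tubb5 was at 2124, 1679 and 1555 CPM in siBard1 (log2 fold change 0.83, SE 0.17, adjusted p = 0.000183) and at 1756, 1390.5 and 1319 CPM in the libraries labelled siBrca1 (0.57, SE 0.18, adjusted p = 0.0508). Both sets lay wholly above nt, and the second missed the threshold in edgeR with TMM scaling and passed with DESeq2's size factors. The siBard1 call was lost without the replicate term and with limma. In siBard1 1 of 6 members passed, where 10.3% of all genes did, and in siBrca1 0 of 6, where 4.22% did; in siBrca1 Tubb5 alone had an unadjusted p under 0.05, and 1 gene passed by DESeq2 and 0 by limma. Directly compared, Tubb5 differed between siWdr5 and siBrca1 by 0.45 (95% interval 0.12 to 0.79, adjusted p = 0.0699) and between siWdr5 and siBard1 by 0.19 (-0.12 to 0.51, adjusted p = 0.538). In edgeR 0 of 6 members passed against siBrca1 (1 at an unadjusted p under 0.05, 1 by DESeq2, 0 by limma), where 9.99% of all genes changed. Against siBard1 0 of 6 passed (0 unadjusted, 0 by DESeq2 and by limma), where 8.36% did.

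**Figure D5:**
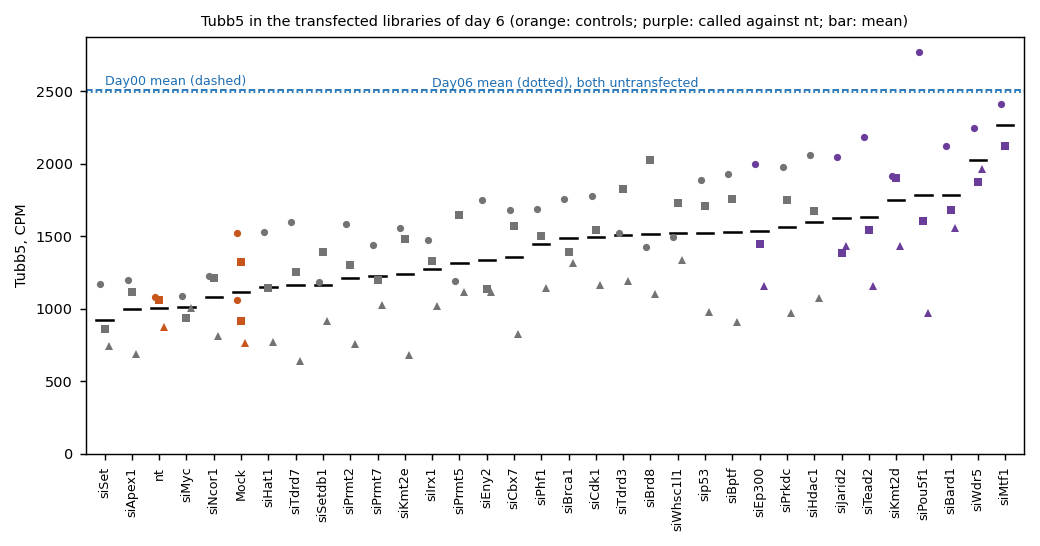
Tubb5 in CPM in 34 of the 35 transfected conditions, ordered by mean, with points for libraries; control conditions and the conditions past the threshold against nt are coloured, and lines mark the Day00 mean (2506) and the Day06 mean (2493). The nt mean is 1006, the siWdr5 mean 2029 and the siMtf1 mean 2268 from 2 libraries.

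The other siRNAs with a Tubb5 call were siMtf1, siKmt2d, siPou5f1, siJarid2, siTead2 and siEp300. Tubb5 was at 2415 and 2120.2 CPM in the 2 siMtf1 libraries (log2 fold change 0.98, SE 0.19, adjusted p = 0.000763) and at 1915, 1905 and 1430.4 CPM in those labelled siKmt2d (0.78, SE 0.17, adjusted p = 0.00172). The siMtf1 mean was the highest of the 35 transfected conditions, from replicates 1 and 2 only; over those 2 replicates it was 2268 CPM, that of siPou5f1 2189 CPM and that of siWdr5 2061 CPM. The siMtf1 call was lost without replicate 1 or 2, which leaves 1 siMtf1 library that is assumed to vary like the other conditions, and the siKmt2d call without replicate 2. Kmt2d encodes an H3K4 methyltransferase and Mtf1 the metal-response transcription factor. In siPou5f1, against the gene for Oct4, Tubb5 ran from 969 to 2769 CPM and overlapped with nt (0.73, adjusted p = 0.00330); without replicate 1 it had no call.

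The 3 weakest Tubb5 calls were siJarid2 at 2049.8, 1385 and 1436 CPM (log2 fold change 0.69, adjusted p = 0.0408), the libraries labelled siTead2 at 2184, 1546 and 1160.2 CPM (0.65, adjusted p = 0.0469) and those labelled siEp300 at 2001, 1447 and 1158 CPM (0.57, adjusted p = 0.0259). Each lay above nt in all 3 libraries, and these calls held under 3, 4 and 5 of 11 alternatives and were each lost whichever replicate was left out. The shares of all tested genes that changed were 0.431% in siMtf1, 0.962% in siKmt2d, 5.77% in siPou5f1, 0.697% in siJarid2, 1.03% in siTead2 and 5.68% in siEp300. In each of these 6 siRNAs Tubb5 was the only tested member called.

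All 33 siRNA means lay below the Day06 mean of 2493 CPM, 31 lay above the nt mean and 29 above the Mock mean, and the lowest was siSet at 924 ± 223 CPM (SD, n = 3). Across all transfected conditions together Tubb5 (adjusted p = 2.32e-13) and Tuba1a (4.91e-05) passed a test of any difference in edgeR, 2 of 6 members, where 45.1% of all genes passed.

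Tuba1a was the other member with an siRNA call. It was at 107, 197 and 158 CPM in siPrkdc, which targets the DNA-dependent protein kinase, against 349.7, 284 and 466 CPM in nt, on 4, 10 and 16 counts. The log2 fold change was -1.27 (SE 0.34, adjusted p = 0.0108), and 1.76% of all genes changed in siPrkdc. The groups did not overlap, but the call was lost without replicate 1 and without replicate 3. Tubb5 in the same libraries stood at 1978, 1749.8 and 969 CPM, with no call in edgeR with TMM scaling (adjusted p = 0.0948) and a call with DESeq2's size factors (adjusted p = 0.0440).

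The rare beta genes differed from nt by a few counts. Tubb2a had 6, 1 and 5 counts in siWdr5 against 1, 0 and 1 in nt, a ratio of 5.95 (95% counting interval 1.32 to 54.7). The nt level of Tubb2a was low among the transfected conditions, with the means of 32 of the 33 siRNAs above it, so the ratio is not particular to siWdr5. Tubb2b went the other way, with 2, 2 and 0 counts in siWdr5 and 2, 0 and 0 in siBrca1 against 4, 2 and 8 in nt (ratios 0.283, 0.0679 to 0.902, and 0.201, 0.0222 to 0.875). When every gene was tested without a filter, neither gene passed in siWdr5 (adjusted p = 0.341 and 0.544, edgeR).

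Fibroblast markers were summed for siWdr5, siBard1, siBrca1 and siMtf1 only, and were higher than nt in siWdr5, siBard1 and siBrca1. The other siRNAs with a Tubb5 call were not examined for them. Their summed level was 2958 to 3664 CPM in siWdr5, 1405 to 2379 CPM in siBard1 and 1527 to 2087 CPM in siBrca1, against 825 to 1049 CPM in nt. 5 of the 6 markers rose in siWdr5, where 27.2% of all tested genes changed, and 3 rose in siBard1, where 10.3% did. Col1a1, a chain of type I collagen, rose in siWdr5 by 2.67 (adjusted p = 3.5e-17 in edgeR). In siMtf1, with the highest Tubb5 mean, the sum was 961 to 996 CPM, within the range of nt. No proliferation marker passed the threshold in siWdr5 (Top2a -0.07, adjusted p = 0.847), and 1, Top2a, fell in siBard1 (-0.77, adjusted p = 0.0278). The part of residual fibroblasts in the Tubb5 values was not tested.

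Alpha-tubulin counts have to be read with their processed pseudogenes, intronless copies of the message. 4 rows of such copies passed the filter, Gm17383 (3028 counts), Gm14150 (1870), Gm5620 (1345) and Gm3756 (702), together 6945 counts beside 10714 from the 3 alpha genes. Of the last 500 bases of the transcripts, 57.6% of the 36-base words of Tuba1a, 64.9% of Tuba1b and 70.5% of Tuba1c also occurred in another gene, but in the last 200 bases these shares were 0%, 1.21% and 17.0%. Reads could thus be split between copies, and the values of single alpha genes are uncertain. All 4 pseudogene rows rose from Day03 to Day04, Gm17383 by 1.27 (adjusted p = 0.000531 in edgeR). From Day02 to Day03 only Gm17383 passed (-1.0, adjusted p = 0.0441). Gm14150 (-0.30), Gm5620 (-0.82) and Gm3756 (-1.83) had no call in that step. From Day00 to Day06 Gm17383 (-0.92, adjusted p = 0.00297) and Gm5620 (-1.09, adjusted p = 0.0130) fell, and Gm14150 (-0.65) and Gm3756 (-0.63) had no call.

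Adding the copies to the alpha genes kept the dip at day 3. The sum was 1932 ± 117 CPM (SD, n = 3) in Day02, 1033 ± 484 CPM in Day03 and 2660.2 ± 589 CPM in Day04, where the Day03 libraries (721 to 1589.9 CPM) lay below those of both other days. From Day00 to Day06 it went from 3153 ± 310 to 2056 ± 122 CPM. None of the 36-base words in the last 500 bases of Tubb5 or of Tubb2b occurred in another gene, whereas 48.2% of those of Tubb2a and 43.2% of those of Tubb4b occurred elsewhere. For Tubb4b, with 1330 counts, the copies were mainly Tubb4b-ps1, Tubb4b-ps2 and Gm16165, with 242, 54 and 82 counts, so its values, the nt and Mock calls included, are uncertain in the same way; in its last 200 bases the share was 4.24%.

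The genes most like each member over the 42 condition means were, for the alpha genes, mainly each other and their copies: Gm17383 for Tuba1a (Pearson's r 0.765) and Tuba1b (0.763), and Gm14150 for Tuba1c (0.782). For Tubb5 they were Glrx5 (0.71), a mitochondrial glutaredoxin, Tagln2 (0.704), an actin-binding protein, and Fkbp1a (0.689). For Tubb4b they were Cdc42ep3 (0.786), Degs1 (0.754) and Prkar2a (0.736). For Tubb6 the first was Sfr1 (0.626), for Tubb2a Ap2m1 (0.521) and for Tubb2b Emb (0.520). The condition means share libraries and depth, so these are descriptions.

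Of 12 other tubulin genes 1 was tested, Tubb3, the neuronal class III beta-tubulin, with 650 counts. It was at 44.7 ± 39.7 CPM (SD, n = 3) in Day03 and 119 ± 22.9 CPM in Day04 and rose between them (log2 fold change 1.54, adjusted p = 0.0485). In Day06 it was at 187 ± 61.6 CPM, against 119.8 ± 63.9 CPM in Day00, with no call.

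Of 20 listed genes that fold tubulin 13 were tested, chiefly subunits of the chaperonin CCT, of prefoldin and of the tubulin cofactors. From Day02 to Day03 1 of 13 fell, Cct5 by -1.18 (adjusted p = 0.0413), where 2.82% of all tested genes changed. From Day03 to Day04 2 of 13 rose, Cct5 by 1.05 and Cct8 by 0.73, where 11.9% of all tested genes changed and 5.31% rose. In nt against Day06 4 of 13 changed, near the 26.6% of all tested genes: Cct5 (0.99), Tbca (1.05) and Cct8 (0.50) were higher and Cct3 was lower (-1.02). In siWdr5 4 of 13 fell and 0 rose, near the 27.2% of all tested genes that changed: Pfdn5 by -1.39 (adjusted p = 0.00587), Cct5 by -1.09 (0.00135), Cct4 by -0.77 (0.0369) and Cct8 by -0.74. Cct8 and the genes named for comparisons other than siWdr5 against nt and Day06 against Day00, here and in the next lists, were chosen after their values were seen. From Day00 to Day06 1 of 13 folding genes was called, Cct8, higher by 0.70 (adjusted p = 0.0128 in edgeR), where 22.2% of all tested genes changed. The list's median in siWdr5 was -0.48, against 0.00 over all tested genes, both on the log2 scale. The summed level of the 20 genes was 4207 to 5220 CPM in nt, 3071 to 3834 CPM in Mock and 3151 to 3596 CPM in siWdr5, so nt stood above both. By the test 1 of 13 folding genes was lower in Mock than in nt, where 1.56% of all tested genes changed.

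Microtubule-binding proteins were tested for 7 of 16 listed genes. In siWdr5 3 of 7 rose and 0 fell, where 27.2% of all tested genes changed: Map4, the main such protein outside neurons, by 1.79 (SE 0.50, adjusted p = 0.00132), Map1b by 1.52 (SE 0.40, adjusted p = 0.000980) and Mapre1, the plus-end protein EB1, by 0.66 (adjusted p = 0.0409). In siBard1 1 of 7 rose, Map1b by 1.63, where 10.3% of all tested genes changed. In nt against Day06 2 of 7 were lower, Map1b (-1.74) and Mapre1 (-0.86), near the 26.6% of all genes, and from Day00 to Day06 1 of 7 fell, Map7d1 (-1.65, adjusted p = 0.0357), where 22.2% of all genes changed.

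Among genes that sequester or sever microtubules, 4 of 11 were tested. Stmn1, which binds free tubulin dimers, fell from Day02 to Day03 by -1.25 (adjusted p = 0.0421), where 2.82% of all tested genes changed, and it was lower in nt than in Day06 (-0.94); none of the 4 was called in siWdr5. Stmn2, its neuronal relative, was at 2.76 ± 4.78 CPM (SD, n = 3) in Day00 and at 60.6 ± 7.05 CPM in Day06 (adjusted p = 0.00700). None of 12 listed genes for tubulin modification or autoregulation had enough counts to be tested.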

How the data were processed

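Per the labels and the study's methods, the authors made 3 pools of barcoded CEL-Seq2 libraries, 1 per replicate, aligned the reads to mm10, and deposited unique molecule counts per gene and library, with no normalization, beside normalized log2 CPM values after filtering libraries and regressing out the batch. Column names gave each library's condition and replicate. Counts were tested in edgeR 4.0.16 (R 4.3.3): filterByExpr, TMM, condition and replicate as terms over the 127 libraries in both tables, quasi-likelihood tests, and Benjamini-Hochberg adjustment over the 3013 tested genes of each comparison at 0.05. The members, lists and tests were chosen with earlier results of these data known. Libraries with the same replicate number deviated together (median correlation 0.0981, against -0.0685 between numbers), so the replicate stayed in the model. Of each list, up to 3 called genes in Day06 against Day00 and in siWdr5 against nt were named, and for each member the 3 genes most like it. Alternatives were no replicate term, DESeq2's size factors, DESeq2 1.42.0, limma 3.58.1 on the deposited log2 values, no filter, only the libraries compared, all 129 libraries, each replicate left out, and nt pooled with Mock. Intervals of ratios of counts are 95% and cover counting error only. Tubb6 is named without its sequence. The values of 1 siRNA condition are not reported here, although it entered the fit and the counts over 33 siRNAs.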

Additional observations from a re-analysis of the deposited data

How the results depend on the processing

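Of 37 single-gene calls 0 changed sign under the alternatives. RLE scaling and DESeq2 kept all 37, using all libraries or only the libraries compared 35, leaving out replicate 1, 2 or 3 25, 28 and 23, no filter 24, no replicate block 22 and limma on the deposited log2 values 18; pooling nt with Mock kept 9 of 9 siRNA calls. Calls of day against previous day went from 13 to 8 without the replicate block, 8 without a filter and 6 with limma, and ranged from 7 to 10 with a replicate left out. Genes lower in nt than in Day06 went from 3 to 1 without the replicate block, with limma and with no filter, and were 1 to 2 with a replicate left out. The 9 siRNA calls became 1 without the replicate block and with limma, 5 without a filter and 3 to 5 with a replicate left out, but 14 with RLE scaling, 16 against nt and Mock and 17 with DESeq2. The siBard1 call was lost (0) without the replicate block and with limma. In siBrca1 1 gene was called with RLE scaling, nt and Mock, only the libraries compared or DESeq2, and between siWdr5 and siBrca1 1 with RLE scaling or DESeq2 (0 between siWdr5 and siBard1). Calls of Day01 to Day05 against Day00 rose from 8 to 13 and those of Day06 from 1 to 2 with RLE scaling, the latter also with DESeq2. Counts for Mock against nt, siWdr5 against nt and both tests of any difference did not change by over 1.5 times. RLE scaling moves the median of all genes by up to -0.21 on the log2 scale (Day05 against Day00), -0.16 in Day06, 0.17 in siWdr5 against nt, -0.14 in nt against Day06 and 0.12 in Day03 against Day02; in siWdr5 it turns Tuba1a and Tuba1b from -0.06 to 0.12, neither called. The cause of these shifts was not tested. Tubb2a, Tubb2b and Tubb6 were limited by depth, and 27 libraries had 0 counts of Tubb6.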
